A study of Mus musculus with 4 samples.

Results

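The genes described are 10 chemokines of the thymic stroma and of its antigen-presenting cells, chosen by name from the 23366 genes of a read count table: Ccl19, Ccl21a, Ccl25, Ccl17, Ccl22, Ccl20, Ccl27a, Cxcl12, Cxcl16 and Xcl1. The rule that names them uses no measured value, though the members were chosen with earlier results of these data known. Medullary thymic epithelial cells (mTECs) were sorted as PI- CD45- MHCII+ Ly51low cells from wild-type C57BL/6 mice aged 6 to 8 weeks. Each RNA sample was a pool of cells from 10 mice, with 2 pools from females and 2 pools from males, and the study compared male with female expression. No treatment or transgene was used, and all 4 libraries carry the same preparation number in the labels. Reads assigned to genes numbered 1976272 to 7103627 per pool. By differences in counts over genes, male pool 2 was farthest from the other pools (chi-square per degree of freedom of 23.0 to 89.9, against 10.1 to 18.7 among the other 3 pools), so the fold changes of the chemokines are also given without it.

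Chemokines are small secreted proteins that steer migrating cells through receptors coupled to G proteins. In the thymus they bring blood progenitors into the organ and move maturing thymocytes from cortex to medulla. Some of them also position dendritic cells and regulatory T cells near the mTECs that display self antigens. The 10 genes fall into ligands of CCR7 (Ccl19, Ccl21a), of CCR9 (Ccl25), of CXCR4 (Cxcl12), of CCR4 (Ccl17, Ccl22), of CCR6 (Ccl20), of CCR10 (Ccl27a), of CXCR6 (Cxcl16) and of XCR1 (Xcl1).

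Several of these genes have near-identical copies in the mouse genome, which decides what a count table of uniquely aligned reads can show. Ccl21a and its copy Ccl21b share 99.5% of their 402 coding bases and differ at T84A and C194T, counted from the A of the start codon of Ccl21a. The coding sequence of Gm1987 was identical to that of Ccl21a, and that of Gm2023 was identical to the 327 coding bases of Ccl19. Ccl27a and Ccl27b share 99.2% of 363 coding bases, with 3 substitutions (C177T, G297A and A343C). A stretch of the length of a read, 50 bases, is shown for each pair to make plain how little separates the copies, with the differing base in capitals. The stretches lie in exon 3 of 4 of Ccl21a (NCBIM37, chr4:42787031-42787080, minus strand) and of Ccl21b (chr4:41774649-41774698, plus strand), and in exon 2 of 3 of Ccl27a (chr4:41716722-41716771, minus strand) and of Ccl27b (chr4:42669109-42669158, plus strand).
Ccl21a: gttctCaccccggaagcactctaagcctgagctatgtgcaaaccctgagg
Ccl21b: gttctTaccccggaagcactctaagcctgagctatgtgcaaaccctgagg
Ccl27a: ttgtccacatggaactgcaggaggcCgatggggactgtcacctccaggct
Ccl27b: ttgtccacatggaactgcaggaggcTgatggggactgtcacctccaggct

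To find how much of each transcript a read of 50 bases can place, every window of that length in the longest coding transcript was looked up in the genome and in the annotated transcripts. For Ccl19, 0 of 696 windows occurred at a single place, and for Ccl21a 0 of 821. For Ccl27a, 218 of 833 windows (26.2%) were unique, and the share over its annotated transcripts ran from 24.3% to 39.9%. All windows of the other 7 genes were unique. The search took exact matches and did not model mismatches that an aligner allows. Between 1691928 and 5962427 alignments per pool, 27.3% to 33.2% of the sum of all rows, were set aside as not unique and carry no gene name.

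**Figure D1:**
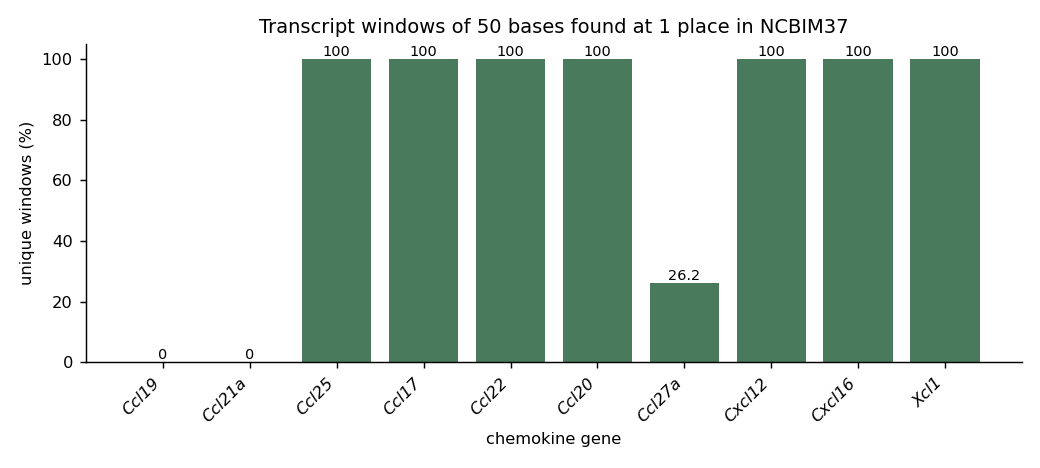
Bars give the percent of 50-base windows of each chemokine transcript that occur at a single place in NCBIM37. Ccl19 and Ccl21a stand at 0, Ccl27a at 26.2, and the other 7 genes at 100.

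Ccl21a and Ccl19, which guide mature thymocytes and dendritic cells through CCR7, were nearly without counts. Ccl21a (NCBIM37, chr4:42786392-42787525, minus strand) was listed at 0 counts in each of the 4 pools. The 5 genes of the table that share windows with it held 1 count in all. Ccl19 (chr4:42768057-42770109, minus strand), which lies 16282 bases from Ccl21a, had 0 and 4 counts in females and 1 and 4 in males. Since no window of the coding transcript searched is unique for either gene, these values do not show how strongly the genes were transcribed, and neither was tested. The Ccl19 transcript searched has 745 bases and all its exons together 867, and where its 9 counts fell was not tested. Their receptor Ccr7 was abundant, at 2312 and 1699 normalized CPM (counts scaled to the library total and edgeR's TMM factor) in females and at 1935 and 1131 in males.

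Ccl25, the CCR9 ligand that draws progenitors and double-positive thymocytes, was measured at 8.70 and 19.3 CPM in females and at 12.3 and 35.0 CPM in males. The gene (chr8:4325210-4360020, plus strand) was thus higher in pool 2 of each sex, and the sexes overlapped. The log2 fold change of male over female was 0.76 ± 0.62 (SE, 2 pools per sex). Without male pool 2 this value was -0.12. Cxcl12 (chr6:117118553-117131385, plus strand), which retains progenitors through CXCR4, had 2 and 9 counts in females and 15 and 0 in males. These counts fell under the filter on low counts, so Cxcl12 was not tested, and the 0 of male pool 2 allows up to 1.16 CPM.

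By mean CPM over the 4 pools, Ccl22 and Ccl17 were the highest of the 7 tested members. Ccl19 and Ccl21a cannot be ranked, since no window of their coding transcripts searched is unique, and Ccl27a only by the part that reads can place. By CPM, which is not divided by gene length, Ccl17 lay above Cxcl16 in both pools 2 and below it in both pools 1 (328 and 264 against 428 and 393 CPM). Per 1000 bases of exon, Ccl17 was above Cxcl16 in every pool (514 to 4516 against 130 to 221). Ccl17 and Ccl22 are the CCR4 ligands that attract thymocytes entering the medulla and regulatory T cells. They neighbour each other on chromosome 8, with 58753 bases between Ccl22 (chr8:97269490-97275599, plus strand) and Ccl17 (chr8:97334353-97335935, plus strand). Ccl22 was measured at 1283 and 1749 CPM in females and at 927 and 1296 CPM in males, and the ranges overlapped. Ccl17 was measured at 328 and 793 CPM in females and at 264 and 2317 CPM in males, so that both the lowest and the highest pool were male. By mean CPM over the 4 pools, Ccl22 ranked 86 and Ccl17 ranked 126 among the 10865 genes tested.

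The pools differed in the balance of the pair. Ccl17 took 20.4% of the Ccl17 and Ccl22 counts in female pool 1 (95% exact Clopper-Pearson interval 19.3 to 21.4), 31.2% in female pool 2 (29.9 to 32.5), 22.2% in male pool 1 (21.3 to 23.0) and 64.1% in male pool 2 (63.1 to 65.1). These intervals cover counting error only, since reads without molecular identifiers are not independent molecules. Pool 2 of each sex had the larger share, and male pool 2 was the only pool of the 4 in which Ccl17 counts exceeded Ccl22 counts. Since both values come from the same library, this share does not depend on the scaling between pools. The counts are not divided by length, and the exons span 513 bases in Ccl17 and 2325 in Ccl22. Per length, Ccl17 was above Ccl22 in every pool, by a ratio of 1.16 and 2.05 in females and of 1.29 and 8.10 in males.

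**Figure D2:**
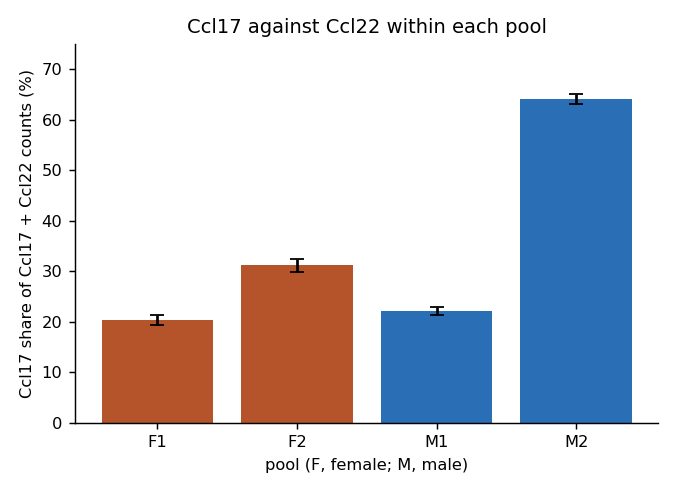
Bars give the percent of the summed Ccl17 and Ccl22 counts that fell on Ccl17 in each pool, with 95% exact binomial intervals as error bars. The share is 20.4 and 31.2 for females and 22.2 and 64.1 for males.

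Ccl20, the CCR6 ligand, was measured at 4.89 and 19.3 CPM in females and at 6.69 and 37.0 CPM in males (chr1:83113341-83115742, plus strand). Ccl27a, a CCR10 ligand best known from skin keratinocytes, was measured at 2.45 and 10.4 CPM in females and at 2.27 and 50.8 CPM in males (chr4:41716340-41721120, minus strand). For both genes, pool 2 was above pool 1 in each sex and the sexes overlapped. The Ccl27a counts of 9, 21, 19 and 132 (in the order female pools 1 and 2, male pools 1 and 2) are those of the part of the gene that reads can place. The 4 genes of the table that share windows with it, Ccl27b among them, had 0 counts in all.

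Cxcl16, a membrane-bound chemokine that binds CXCR6, was measured at 428 and 669 CPM in females and at 393 and 642 CPM in males. The values of the same pool number were close in the 2 sexes. The gene (chr11:70267485-70273486, minus strand) overlaps Zmynd15 on the other strand over 552 exonic bases, and whether the counting used strand is not given in the sources used here. Xcl1, the XCR1 ligand that gathers cross-presenting dendritic cells, was measured at 3.81 and 1.98 CPM in females and at 4.90 and 6.93 CPM in males (chr1:166861775-166865658, minus strand). It was the only tested member whose sexes did not overlap, on 4 to 41 counts per pool. Over all genes tested, both male pools lay above both female pools in 9.47% and below both in 11.7%. In 3 marker lists the sums of both male pools also lay above those of both female pools. The NK cell list of 5 genes summed to 13.0 and 3.46 CPM in females and to 69.8 and 13.9 CPM in males, the thymocyte and T cell list to 394 and 333 against 1035 and 429, and the fibroblast list to 12.2 and 46.0 against 69.4 and 78.5. Between the male pools Xcl1 and the fibroblast list were higher in pool 2, and the NK cell and the thymocyte and T cell lists were lower there. Not all genes of the lists followed the sums, as Lck was at 124 and 67.8 CPM in females and at 278 and 50.4 in males. Lck, Cd3e, Cd3g, Cd4, Ncr1, Klrb1c, Col1a1, Col3a1, Pdgfra and Lum overlapped between the sexes, and the other genes of the 3 lists did not. The part of NK cells, thymocytes, T cells and fibroblasts in the Xcl1 values was not tested.

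**Figure D3:**
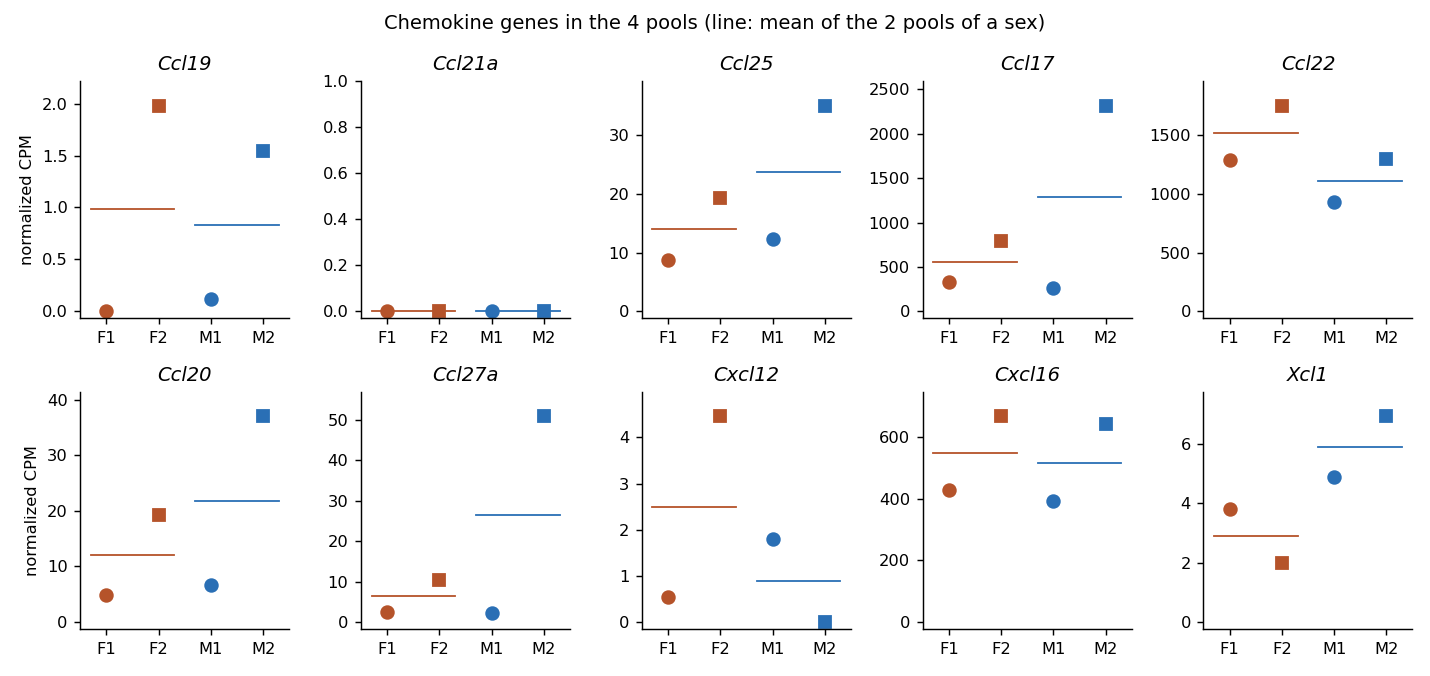
Each panel gives the normalized CPM of a chemokine gene on a linear axis in the 2 female (F) and 2 male (M) pools, with circles for pool 1, squares for pool 2 and lines for the mean of a sex. Ccl17 reaches 2317 and Ccl27a 50.8 in male pool 2, while male pool 1 is at 264 and 2.27.

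Levels of different genes were compared per length, as RPKM over the union of exons (mean ± SD, n = 4 pools). Ccl17 was at 1804 ± 1866, Ccl22 at 565 ± 145 and Cxcl16 at 176 ± 47.2. The pool ranges of Ccl17 (514 to 4516) and Ccl22 (399 to 752) overlapped. Within each pool Ccl17 lay above Ccl22, by a ratio of 1.16 and 2.05 in females and of 1.29 and 8.10 in males. Cxcl16 (130 to 221) lay below Ccl22 in every pool. A lower tier followed, with Ccl20 at 11.9 ± 10.4, Xcl1 at 8.42 ± 3.96, Ccl25 at 7.05 ± 4.37 and Ccl27a at 6.93 ± 9.76, and each of these ranges overlapped the next. When the longest transcript took the place of the union of exons, the means of Ccl25 and Ccl27a were 17.0 and 16.5, above those of Ccl20 (11.9) and Xcl1 (8.42), so the order within this tier depends on the length used. The unions span 2670 bases for Ccl25, over 2 gene identifiers, and 2377 for Ccl27a, against longest transcripts of 1111 and 996 bases. The Ccl27a value is divided by the whole length although only part of it can be placed. Ccl19 was at 1.05 ± 1.15, Cxcl12 at 0.208 ± 0.243 and Ccl21a at 0. The Ccl19 and Ccl21a values do not give the levels of these genes, since no window of the coding transcript searched is unique for either.

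The comparison of the sexes asked whether any of the chemokines differed between male and female mTECs. By edgeR's quasi-likelihood test with adjustment over all 10865 genes, 0 of the 7 tested members passed an adjusted p of 0.05, and 0 had an unadjusted p under 0.05. Over all genes 0 passed (0% of those tested) and 48 (0.442%) had an unadjusted p under 0.05, while DESeq2 called 3 genes and edgeR's exact test called 8. Ccl19, Ccl21a and Cxcl12 fell under the filter. The log2 fold change of male over female was 2.08 ± 1.34 for Ccl27a, 1.20 ± 0.97 for Ccl17, 0.94 ± 0.58 for Xcl1, 0.86 ± 0.92 for Ccl20, -0.08 ± 0.47 for Cxcl16 and -0.45 ± 0.47 for Ccl22 (± SE). The median over the 7 members was 0.86, against 0.03 over all genes tested, and 5 of the 7 were above 0, as were 53.2% of all genes.

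The sign of 4 of these differences turned without male pool 2, and that of Cxcl16 without male pool 1 or without female pool 2. Without male pool 2, the log2 fold change was -1.37 for Ccl27a, -1.07 for Ccl17, -0.75 for Ccl20 and -0.12 for Ccl25, and the members' median was -0.70. It was -0.70 for Ccl22, -0.47 for Cxcl16 and 0.69 for Xcl1, which kept their sign. The Xcl1 value was above 0 with each of the 4 pools left out in turn, from 0.64 to 1.54, and passed edgeR's test in none of these fits (lowest adjusted p = 0.45). Without male pool 1, Ccl17 (2.05, adjusted p = 0.0028), Ccl20 (1.72, adjusted p = 0.0067), Ccl25 (1.38, adjusted p = 0.026) and Ccl27a (3.14, adjusted p = 8.25e-07) passed edgeR's test, with 631 calls over all genes. For Ccl27a the test without a filter on low counts also gave a call (adjusted p = 0.031). Cxcl16 was at 0.23 without male pool 1, against -0.47 without male pool 2. For Ccl17, Ccl20, Ccl25, Ccl27a and Cxcl16 the direction of the difference between the sexes thus depended on which male pool was kept.

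With all 4 pools in the fit, more genes were called between the pool numbers than between the sexes. Without male pool 1 this order turned. The labels number the pools 1 and 2 and do not say what the number stands for. The model of pool 2 against pool 1 held pool number alone, so it tests a shift shared by the sexes. Xcl1 moved in opposite directions (a fold of 0.52 in females and 1.41 in males), which such a test averages out. The spread in this test also includes the difference between the sexes. By edgeR's quasi-likelihood test, 2 of the 7 tested members passed, both higher in pool 2, where 1.86% of all genes passed in that direction (202 genes) and 2.03% in either. Ccl20 rose by a log2 fold change of 2.25 ± 0.38 (SE, adjusted p = 0.039) and Ccl27a by 3.72 ± 0.67 (adjusted p = 0.043). Both calls held without male pool 2, at 1.68 and 2.13 on the log2 scale with adjusted p = 0.037 and 0.042.

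Ccl17 (2.39 ± 0.51, adjusted p = 0.053) and Ccl25 (1.35 ± 0.35, adjusted p = 0.068) missed the threshold of edgeR's quasi-likelihood test. They passed with sex as a further term, where 4 members and 7.43% of all genes passed, and likewise under DESeq2 (4 members, 5.99% of all genes) and edgeR's exact test (4 members, 10.5%). Without male pool 2, the log2 fold change of Ccl17 was 1.42 and passed edgeR's quasi-likelihood test (adjusted p = 0.0029), and that of Ccl25 was 0.83 and did not (adjusted p = 0.22). Cxcl16 (0.68 ± 0.30, adjusted p = 0.21), Ccl22 (0.46 ± 0.37, adjusted p = 0.49) and Xcl1 (0.06 ± 0.54, adjusted p = 0.96) did not pass. Without male pool 2 these were 0.70, 0.66 and -1.17, and none passed. At an unadjusted p under 0.05 there were 5 of the 7 members and 23.7% of all genes. All 7 log2 fold changes were above 0, as were 47.9% over all genes, except that Xcl1 turned to -0.33 with library size only, to -0.0058 without a filter, and below 0 without female pool 1 or male pool 2. The members' median was 1.35 and that of all genes tested was -0.03. In 6 of the 7 members both pools 2 lay above both pools 1, which was so for 26.5% of all genes tested. The split of all calls depended on the scaling: 91.4% of the 221 calls were higher in pool 2 with TMM factors and 49.2% of 764 with library size only, under which the median of all genes was -0.35 and that of the members 0.98.

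**Figure D4:**
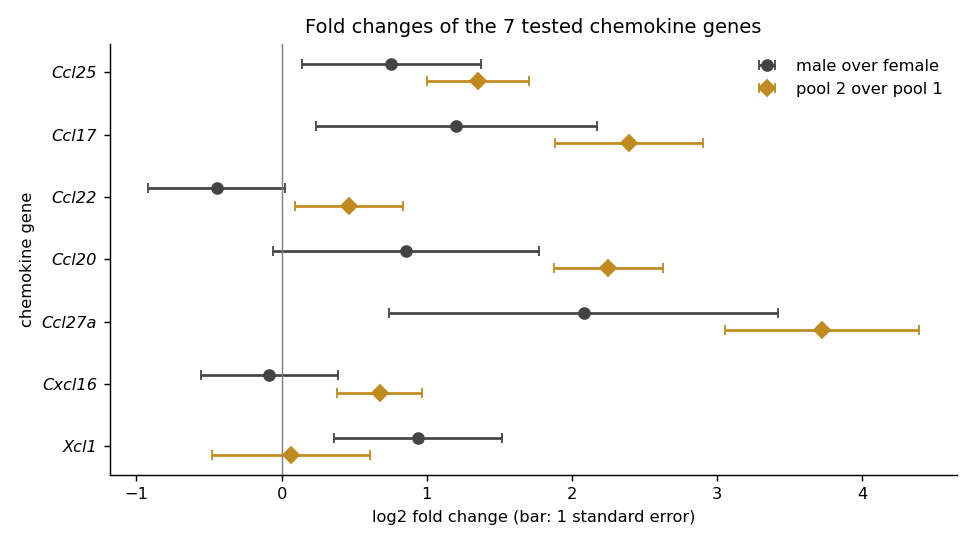
Points give the log2 fold change of the 7 tested chemokine genes for male over female (circles) and for pool 2 over pool 1 (diamonds), with bars of 1 standard error. The pool contrast is largest for Ccl27a (3.72), Ccl17 (2.39) and Ccl20 (2.25), and none of the male over female values passed the test.

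The promoters of the called genes Ccl20 and Ccl27a are shown because both genes rose in pool 2. Sequences are the 250 bases before the start site in RefSeq's GRCm38.p6 table, a later build than the NCBIM37 coordinates used elsewhere. For Ccl20 this is chr1:83116516-83116765 on the plus strand. For Ccl27a, which has 3 start sites in the table, it is chr4:41770213-41770462 on the minus strand, the site whose window held a motif. In all, 4 motifs were searched on both strands after the expression values had been seen, and each is reported. GGGNNTTCC (a kappa B site) was in the windows of Ccl19 and Ccl20 and of 5.61% of all 27025 genes. TGACTCA (an AP-1 site) was in that of Ccl27a and of 5.16% of genes. The core promoter motif TATAAA was in that of Ccl25 and of 14.3% of genes. The full palindromic androgen response element was in that of no member and of 0.0111% of genes. A promoter was in the table for 9 of the 10 members, all but Cxcl16. Capitals mark the motif, 80 bases before the start in Ccl20 and 77 in Ccl27a, and a match of letters does not show that a factor binds.
Ccl20: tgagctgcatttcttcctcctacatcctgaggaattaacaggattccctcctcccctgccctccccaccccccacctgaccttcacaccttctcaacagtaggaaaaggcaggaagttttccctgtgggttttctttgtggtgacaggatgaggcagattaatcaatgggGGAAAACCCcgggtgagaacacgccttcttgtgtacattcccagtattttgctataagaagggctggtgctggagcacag
Ccl27a: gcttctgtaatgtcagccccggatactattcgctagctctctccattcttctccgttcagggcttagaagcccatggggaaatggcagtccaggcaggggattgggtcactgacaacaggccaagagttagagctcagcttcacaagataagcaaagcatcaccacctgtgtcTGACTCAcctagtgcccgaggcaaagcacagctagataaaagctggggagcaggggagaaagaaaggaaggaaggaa

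Among the other chemokines, 30 were in the table and 18 were tested. Between the sexes 0 of them passed edgeR's test, and 1 had an unadjusted p under 0.05. Between the pools 2 passed, both higher in pool 2, where 1.86% of all genes passed in that direction. At an unadjusted p under 0.05 in edgeR's test of the pools there were 14 of the 18, against 23.7% of all genes. The log2 fold change of pool 2 over pool 1 was above 0 in 17 of the 18, against 47.9% of all genes, with a median of 1.32. Ccl8, a monocyte attractant, was measured at 3.81 and 26.2 CPM in females and at 7.89 and 90.5 in males (log2 fold change of 3.24, adjusted p = 0.039). Cxcl9, an interferon-induced CXCR3 ligand, was measured at 47.8 and 92.0 CPM in females and at 42.1 and 188 in males (1.64, adjusted p = 0.049). Without male pool 2 both still passed edgeR's test, at 2.06 for Ccl8 (adjusted p = 0.019) and 1.03 for Cxcl9 (adjusted p = 0.016). The Cxcl9 call was lost without male pool 1 (1.55, adjusted p = 0.14). The most abundant were Ccl4 and Ccl5, at 478 to 3842 CPM and 441 to 3704 CPM over the 4 pools, both highest in male pool 2. Ccl21b, Ccl21c, Ccl26, Ccl27b and Ccl28 were listed at 0 in all pools.

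Of the 8 receptors of the members, 6 were tested and 0 passed edgeR's test in either comparison, with 0 and 3 at an unadjusted p under 0.05 for sex and pool. Their median log2 fold change of pool 2 over pool 1 was -0.39, and 1 of the 6 was above 0. That gene was Xcr1, which marks cross-presenting dendritic cells, at 70.1 and 111 CPM in females and 78.3 and 135 CPM in males. Of the other chemokine receptors 8 were tested and 0 passed in either comparison, Cxcr5 (67.4 to 156 CPM) and Cxcr2 (34.5 to 178 CPM) being the most abundant. Of the atypical receptors, which bind chemokines without G protein signalling, Ccrl2 (86.9 to 147 CPM) and Cxcr7 (9.40 to 19.8 CPM) were tested and neither passed. The protease Dpp4, which trims chemokines (49.98 to 75.8 CPM), and the sheddase Adam17 (50.4 to 60.6 CPM) did not pass either, nor did Adam10.

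The genes whose profile over the 4 pools was nearest to that of Ccl17, the member with the highest mean RPKM, were Aif1, Romo1 and Slirp. Their root-mean-square differences from Ccl17 in centred log2 CPM were 0.012, 0.096 and 0.10 over 4 pools. Aif1, which encodes a protein of macrophages, was measured at 238 and 584 CPM in females and at 192 and 1717 in males. Romo1 and Slirp encode mitochondrial proteins. With 4 points, a likeness of profile is a description.

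Marker lists were read to see which cells the pools held, since fewer cells of a type and less RNA per cell cannot be told apart in bulk RNA. The mTEC list, with Cd86 and Cd80 its most abundant genes, summed to 370 to 386 CPM in females and 373 to 376 in males, and so hardly moved. That sum is mostly Cd86, at 263 to 307 CPM, and the other genes of the list did not all follow it. Aire, the regulator of self antigens, was at 19.3 and 31.7 CPM in females and at 19.7 and 28.9 in males. Fezf2, another such regulator, was at 4.35 and 16.8 CPM in females and at 9.68 and 15.4 in males. Tnfrsf11a, the receptor RANK, was at 15.8 and 27.7 CPM in females and at 13.98 and 22.7 in males. These 3 genes, of the 5 tested in the list, were thus higher in pool 2 of each sex, as Ccl20 and Ccl27a were. Each had an unadjusted p under 0.05 in edgeR's pool test, as had 23.7% of all genes, and none passed the adjusted threshold. The log2 fold changes of the other tested genes of the list, Cd86 (-0.20) and Cd80 (-0.015), were below 0. The median log2 fold change of pool 2 over pool 1 was 0.63 over the 5 tested genes of the list, against -0.03 over all genes. The epithelial list, with Spint2 and Krt8 its most abundant genes, summed to 376 and 650 CPM in females and to 418 and 618 in males, higher in pool 2 of each sex. The cTEC list, led by Cd83 and Ctsl, summed to 1294 to 1533 CPM. That sum is mostly Cd83, at 1121 to 1380 CPM. Other genes of the list were low, with Psmb11 at 16.1 to 32.7 CPM, Dll4 at 5.78 to 18.5, Foxn1 at 1.09 to 4.45 and Prss16 at 1.54 to 2.97.

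Genes of haematopoietic cells were abundant although the sort took CD45- cells. The macrophage and monocyte list, led by Lyz2 and C1qb, summed to 2549 and 4533 CPM in females and to 1859 and 6223 in males, and so moved with the pool number as the chemokines did. Over all genes, 2.03% passed edgeR's pool test in either direction. Of the 8 tested genes of the macrophage and monocyte list 2 passed, C1qa (log2 fold change of 1.97, adjusted p = 0.039) and C1qb (1.93, adjusted p = 0.045). Both passed edgeR's test without male pool 2 (1.82 and 1.66, adjusted p = 0.0013 and 0.0031). Without male pool 1 both calls were lost (adjusted p = 0.25 and 0.37), and without female pool 1 that of C1qb was lost (adjusted p = 0.093). Of the 9 tested genes of the dendritic cell list, led by Flt3 and Fscn1, Batf3 passed edgeR's pool test (2.24, adjusted p = 0.039). Its log2 fold change was 1.75 without male pool 2. The genes of the list did not all move alike. In all, 6 of the 9 log2 fold changes were above 0, and those of Siglech (-0.51), Zbtb46 (-0.07) and Flt3 (-0.04) were below. The list summed to 1057 and 1248 CPM in females and to 771 and 1238 in males. The part of these cells, and of the mTEC and epithelial genes that moved the same way, in the pool differences of Ccl17, Ccl20 and Ccl27a was not tested.

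The B cell list, led by Cd79a and Cd79b, ran the other way, at 4462 and 2983 CPM in females and 3667 and 2492 in males. The thymocyte and T cell list was led by Lck and Cd8a, the NK cell list by Nkg7 and Gzma, and the fibroblast list by Dcn and Col3a1, and their sums are those given with Xcl1. The endothelial list, led by Pecam1 and Kdr, summed to 18.1 to 29.5 CPM with Emcn at 0 in all pools. In these 5 lists 0 genes passed edgeR's test in either comparison, against 0% of all genes for sex and 2.03% for pool. For sex, 4 had an unadjusted p under 0.05, against 0.442% of all genes. These were 2 of 8 tested genes of the thymocyte and T cell list and 2 of 2 of the NK cell list. For pool, 6 had an unadjusted p under 0.05, against 23.7% of all genes. These were 1 of 5 tested B cell genes, 3 of 8 thymocyte and T cell genes and 2 of 2 NK cell genes.

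**Figure D5:**
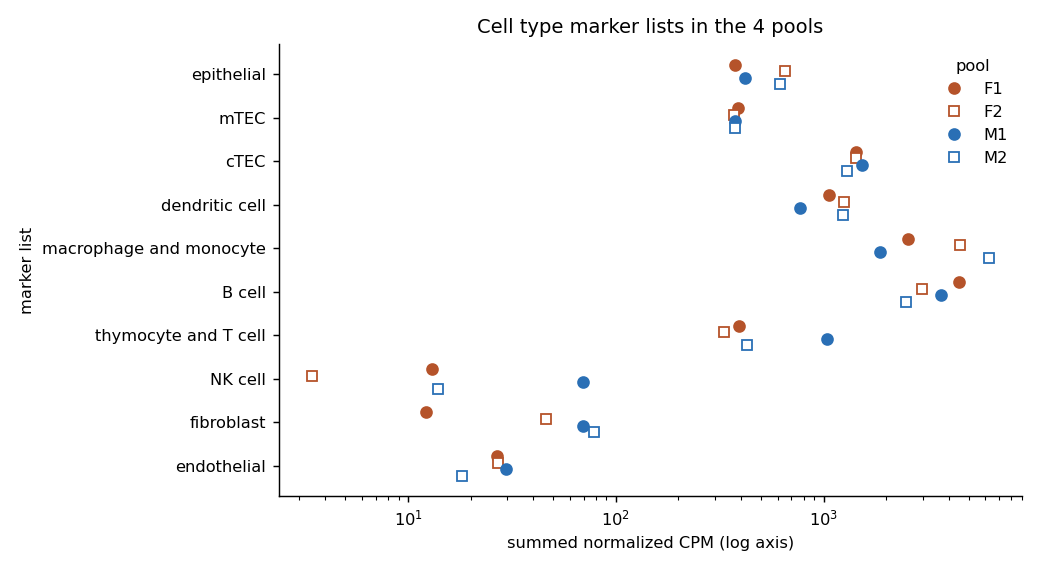
Points give the summed normalized CPM of each marker list on a log axis in the female (F) and male (M) pools, with filled circles for pool 1 and open squares for pool 2. The macrophage and monocyte list is highest in male pool 2 (6223) and lowest in male pool 1 (1859), and the mTEC list, whose sum is mostly Cd86, lies between 370 and 386.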

How the data were processed

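RNA was measured in 2 female and 2 male pools of sorted mTECs, as 50-base reads from SMARTer Ultra Low libraries. The authors removed low-quality reads with Trimmomatic, aligned to mm9 (NCBIM37) with TopHat2 and counted with HTSeq-count; versions, annotation and strand setting are not given in the sources used here. The deposited values are raw read counts per gene. Rows of unassigned reads, 66.9% to 70.2% of the sum of all rows per pool, stayed out of library sizes and tests. The depth, 1976272 to 7103627 counts on genes, limits precision for genes of few counts, and 3 counts were taken as the limit of a count of 0.

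From these counts, edgeR 4.0.16 in R 4.3.3 gave TMM factors, normalized CPM and the quasi-likelihood test (filterByExpr with a minimum count of 10, Benjamini-Hochberg adjustment over 10865 genes at 0.05, two-sided), once with sex and once with pool number alone in the model. The SE of a log2 fold change was that change over the square root of F. Alternatives were DESeq2 size factors, library size only, no filter, DESeq2 1.42.0, edgeR's exact test, a replicate block and each pool left out. The fits were tested on simulated data. The pools are separate mice by the labels, and no pair differed by less than the sampling noise.

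Named genes are all members; from each other list, the 2 most abundant, those past the threshold and markers at 0 in all pools; and the 3 genes nearest in profile to the member with the highest RPKM (centred log2 of CPM + 0.5). Aire, Fezf2, Tnfrsf11a, Adam10, Ccr7, the copies of members and further genes of the marker lists were named for context, after their values were seen. Members and lists were chosen with earlier results of these data known.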

Additional observations from a re-analysis of the deposited data

Results flagged for a closer look

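Xcl1 and Cxcl12 moved in opposite directions between the pools of the 2 sexes. For Xcl1, pool 2 minus pool 1 was -1.83 CPM in females and 2.03 CPM in males. For Cxcl12 it was 3.91 CPM in females and -1.79 CPM in males. The differences rest on 4 to 41 counts per pool for Xcl1 and 0 to 15 for Cxcl12, and they were not tested.

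The alignments set aside as not unique, 1691928 to 5962427 per pool, lie outside the gene counts. They carry no gene name, so how many came from Ccl19, Ccl21a and Ccl27a was not measured.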

How the results depend on the processing

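Between the sexes, the calls over all genes numbered 5 with library size only, 26 without a filter, 3 with DESeq2, 8 with edgeR's exact test and 17 with pool number as a replicate block, and 0 to 631 with a pool left out. The members called numbered 1 without a filter and 0 to 4 with a pool left out, and 0 under the other 5 settings, the replicate block included. The members' median log2 fold change ran from -0.70 to 1.45 with a pool left out. With a pool left out, the log2 fold change of male over female ran from -0.12 to 1.45 for Ccl25, -1.07 to 2.05 for Ccl17, -0.75 to 2.15 for Ccl20, -1.37 to 3.42 for Ccl27a and -0.47 to 0.30 for Cxcl16. The sign turned without male pool 2 for the first 4 of these genes, and without female pool 2 (0.30) or male pool 1 (0.23) for Cxcl16.

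Between the pools, the calls over all genes numbered 121 with DESeq2 size factors, 764 with library size only, 1504 without a filter, 651 with DESeq2, 1138 with the exact test and 807 with sex as a further term, and 170 to 2810 with a pool left out. The members called numbered 4 without a filter, with DESeq2, with the exact test and with sex as a further term, and 2 to 5 with a pool left out, 5 of them without female pool 2. The members' median was 0.98 with library size only and ran from 0.83 to 1.73 with a pool left out. Ccl20 and Ccl27a passed under all 10 alternatives, with adjusted p of at most 0.047 and 0.049. Xcl1 turned to -0.33 with library size only and -0.0058 without a filter, and ran from -1.17 to 0.67 with a pool left out. By the longest transcript the Ccl25 and Ccl27a levels were 17.0 and 16.5 RPKM, and by the union of exons 7.05 and 6.93. Counts of Ccl27a stayed at 181 and those of Ccl21a went from 0 to 1 when the copies in the table were added. The cause of these changes was not tested.

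The pool numbers are not stated to pair the samples. Over genes, the pool differences of the 2 sexes correlated at 0.52, with 2 pairs only. Where a pool was left out, the lone pool was assumed to vary like the other groups.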
